A study of Mus musculus with 6 samples.

Results

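The C/EBP family consists here of 5 genes, Cebpa, Cebpb, Cebpd, Cebpe and Cebpg, taken by exact symbol from a deposited table of 16539 genes. All 5 had reads in every library and were among the 12097 genes that passed the filter on low counts. RNA-seq of polyadenylated RNA was done on granulocyte-monocyte progenitors (GMPs), the bone marrow cells from which neutrophils and monocytes arise. They were sorted from WT mice on day 3 after myocardial infarction (MI), the death of heart muscle that follows a blocked coronary artery. The 3 SF+MI libraries came from mice exposed to sleep fragmentation (SF) as well, and the 3 control+MI libraries came from mice with infarction alone, so every group carries the infarction and none lacks it. Mouse strain, age and sex, the length of the sleep fragmentation and the number of mice behind a library are not given in the sources used here, and a p-value here reflects the spread among libraries alone, which can be technical in part. The study asked what differs between these progenitors, with neutrophil production after infarction as its theme.

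C/EBP proteins are transcription factors of the basic leucine zipper (bZIP) class that bind DNA as dimers, with each other or with other bZIP proteins. In the marrow, C/EBP-alpha is needed for the step from earlier progenitors to the GMP, C/EBP-beta for the faster granulocyte output of emergency granulopoiesis, and C/EBP-epsilon for the late steps in which secondary granules are made. C/EBP-delta is induced by inflammatory cytokines, and C/EBP-gamma lacks the activating part of its relatives and acts through its partners, Atf4 among them.

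Promoter sequences are shown for the 3 members found in the promoter table, because these windows differ in the features that place a transcription start and in matches for the dimer partners described further on. Each line holds 250 bases before and 50 bases from the annotated start, 5′ to 3′ on the gene's strand, from RefSeq on GRCm38.p6. Cebpa lies at chr7:35119043-35119342 on the plus strand, Cebpb at chr2:167688665-167688964 on the plus strand and Cebpg at chr7:35056517-35056816 on the minus strand. Capitals mark matches, in either orientation, to 3 motifs. TATAAA is the sequence of the TATA box, which lies before the start of transcription and positions it. CCAAT is the CCAAT box, and TGACG is the core of the cyclic AMP response element.
Cebpa: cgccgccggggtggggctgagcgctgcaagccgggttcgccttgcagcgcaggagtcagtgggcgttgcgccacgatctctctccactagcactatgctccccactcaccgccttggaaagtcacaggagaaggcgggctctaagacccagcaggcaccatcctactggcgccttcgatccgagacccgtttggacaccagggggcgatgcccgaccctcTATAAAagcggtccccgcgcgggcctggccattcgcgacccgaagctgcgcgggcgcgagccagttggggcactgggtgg
Cebpb: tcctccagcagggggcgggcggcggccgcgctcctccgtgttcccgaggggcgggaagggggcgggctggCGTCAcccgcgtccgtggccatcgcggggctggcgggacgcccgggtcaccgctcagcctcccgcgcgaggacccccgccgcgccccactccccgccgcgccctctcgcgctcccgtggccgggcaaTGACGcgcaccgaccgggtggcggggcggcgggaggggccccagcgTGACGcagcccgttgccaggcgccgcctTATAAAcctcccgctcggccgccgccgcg
Cebpg: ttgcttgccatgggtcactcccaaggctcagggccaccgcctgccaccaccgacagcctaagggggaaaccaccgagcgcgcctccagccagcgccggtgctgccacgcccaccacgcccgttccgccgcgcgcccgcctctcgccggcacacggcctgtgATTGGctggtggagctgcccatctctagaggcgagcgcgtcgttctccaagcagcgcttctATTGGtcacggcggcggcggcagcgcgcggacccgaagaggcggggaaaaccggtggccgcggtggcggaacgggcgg

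The Cebpa window held TATAAA with its first base 30 bases before the start (position -30, with the start at 0) and none of the other motifs searched. The Cebpb window held TGACG at positions -180, -53 and -7, the first of them on the other strand, and TATAAA at position 21. That TATAAA lies after the annotated start and so is not placed as a TATA box for it. The Cebpb window also held 5 matches to GGGCGG (GC box), of which the pair at -238 and -234 overlap each other. Cebpg had no TATAAA, 2 matches to CCAAT on the other strand at -89 and -28, and 1 GGGCGG at 44. Of all 32851 promoter windows in the table, the TATA box was in 13.6%, the CCAAT box in 37.4%, the cyclic AMP response core in 20.8% and the GC box in 35.7%, counting both strands. No window of the 3 members matched TTGCNNAA (C/EBP site, in 10.8% of all windows), TGATGNAA (joint C/EBP and Atf site, 3.97%), TTCNNNGAA (site of STAT factors, 8.3%) or the interferon response site (3.44%). GC content was 67.3% for Cebpa, 80.7% for Cebpb and 71.7% for Cebpg, against a median of 52.7% over all windows. CpG pairs numbered 29 in the Cebpa window, 50 in that of Cebpb and 38 in that of Cebpg, against a median of 7. These matches describe the letters of the windows and say nothing of binding in these cells.

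Expression levels are given as CPM, read counts per 1e+06 reads on the tested genes after TMM scaling of each library. Library totals ran from 28971253 to 31665923 reads. The surface genes of the GMP gate were present in each library. Kit had between 150.1 and 193 CPM in SF+MI libraries and between 156 and 185 CPM in control+MI libraries, and Cd34 had 27.5 to 56.2 CPM in SF+MI and 32.3 to 66.0 CPM in control+MI. Transcripts of later neutrophils were also abundant: 12 marker genes of maturing neutrophils summed to 65838, 23076 and 47740.2 CPM in the SF+MI libraries, against 27508, 39574 and 21892 CPM in the control+MI libraries. Libraries therefore stood apart within their groups, with SF+MI replicate 2 low and control+MI replicate 2 high in that sum. Cd3e, Siglech, Procr, Mecom and Slamf1, markers of T cells, plasmacytoid dendritic cells and stem cells, were under 1 CPM in every library. Other markers of T cells and stem cells exceeded that level in some or all libraries. Cd3d, of T cells, had 0.928 to 3.65 CPM in SF+MI and 0.760 to 1.24 CPM in control+MI. Hlf, of stem cells, had 11.66 to 13.12 CPM in SF+MI and 12.32 to 16.13 CPM in control+MI.

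All 5 C/EBP genes were well expressed, and none was called different between SF+MI and control+MI. Cebpb, Cebpd, Cebpe and Cebpg had a higher fitted level in SF+MI and Cebpa a lower one, and in each case the libraries of the groups overlapped. In edgeR's quasi-likelihood test with Benjamini-Hochberg adjustment over 12097 genes, the adjusted p of each member was 0.99988. By that test 0 of all genes were called (0%), 341 (2.82%) had an unadjusted p under 0.05 and 817 (6.75%) had groups that did not overlap. DESeq2 called 13 genes and limma-voom 0, and their counts below that unadjusted p were 443 and 338. No member was among the genes called by any of the 3 tools, under an unadjusted p of 0.05, or among those without overlap. In bulk RNA, fewer cells of a type and less RNA per cell cannot be told apart, which applies to every level given here. A p that misses the threshold does not show that levels were alike, so the intervals of the differences are given with each gene.

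**Figure D1:**
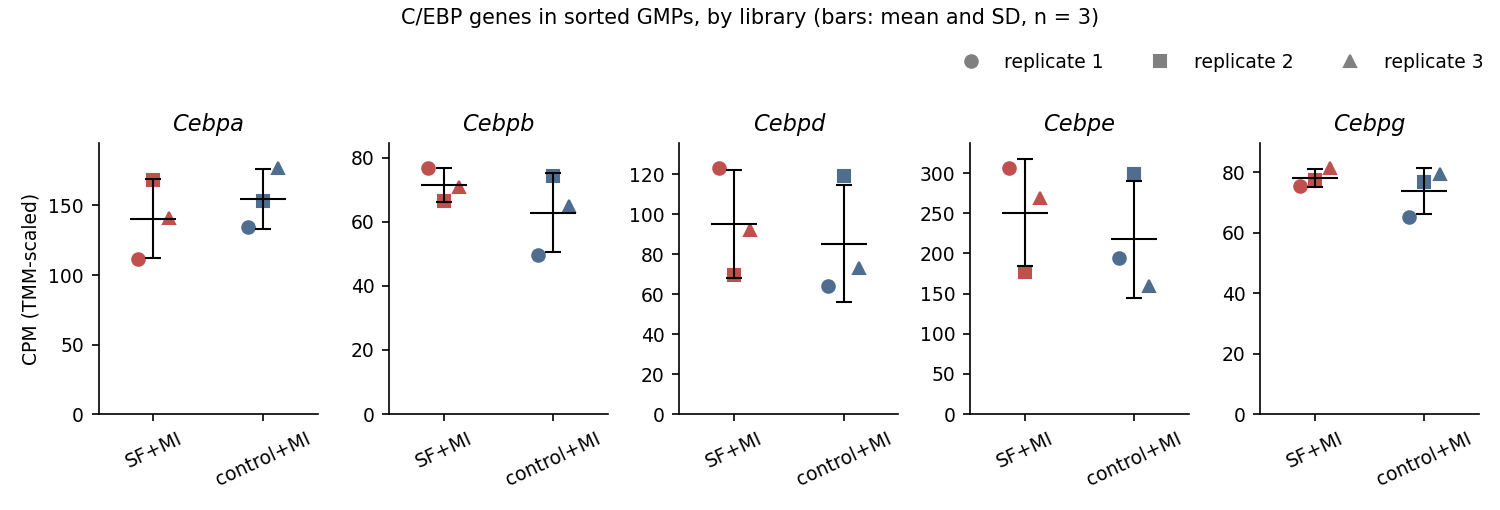
TMM-scaled CPM of the 5 C/EBP genes in each library (vertical axis from 0, its own scale per gene) for SF+MI (left, red) and control+MI (right, blue), with symbols for the replicates and bars for mean and SD (n = 3). Every pair of groups overlaps, and the points of Cebpd and Cebpe lie furthest apart within a group.

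Cebpa, which encodes the factor that sets up the GMP stage, had 111.8, 168.6 and 141.3 CPM in SF+MI replicates 1 to 3. In control+MI replicates 1 to 3 it had 134.3, 153.0 and 177.2 CPM. The lowest library was SF+MI replicate 1 and the highest control+MI replicate 3, and the remaining 4 libraries of the groups were interleaved. Means were 140.6 ± 28.4 CPM in SF+MI and 154.8 ± 21.5 CPM in control+MI (SD, n = 3 each), a log2 fold change of -0.14 (SE 0.17, 95% interval -0.53 to 0.25; edgeR unadjusted p = 0.437). Without SF+MI replicate 1 the difference was 0.0011, and without SF+MI replicate 2 it was -0.29. An annotated antisense transcript, Gm45091, overlaps Cebpa in the GRCm38 annotation. The strand setting of the counting is not given, and without it reads from a gene and its antisense partner cannot be told apart.

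Cebpb, the factor of emergency granulopoiesis, had 76.8, 66.4 and 70.9 CPM in SF+MI libraries and 49.5, 74.1 and 64.8 CPM in control+MI libraries. Control+MI replicate 1 was the lowest of the 6, and the other 5 lay within a narrow band in which the groups overlapped. Means were 71.4 ± 5.22 CPM in SF+MI and 62.8 ± 12.4 CPM in control+MI (SD, n = 3 each), and the log2 fold change was 0.18 (SE 0.15, 95% interval -0.17 to 0.53; edgeR unadjusted p = 0.263). The difference was 0.039 without control+MI replicate 1 and 0.32 without control+MI replicate 2. Tmem189, annotated on the opposite strand over part of Cebpb, had 1032 to 1152 reads per library in SF+MI and 1008 to 1491 in control+MI, while Cebpb had 1921 to 2148 reads in SF+MI and 1569 to 2328 in control+MI.

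Cebpd, the cytokine-induced member, had 123.3, 69.7 and 92.0 CPM in SF+MI libraries, against 63.9, 118.9 and 73.2 CPM in control+MI libraries. SF+MI replicate 1 and control+MI replicate 2 were the high libraries, 1 from each group. Means were 95 ± 26.9 CPM in SF+MI and 85.3 ± 29.4 CPM in control+MI (SD, n = 3 each), a log2 fold change of 0.15 (SE 0.26, 95% interval -0.44 to 0.75; edgeR unadjusted p = 0.573). Leaving out SF+MI replicate 1 or control+MI replicate 1 turned the direction, to -0.079 and -0.017, and leaving out control+MI replicate 2 gave 0.47 with an unadjusted p of 0.067. Spidr, which overlaps Cebpd on the opposite strand, had 1362 to 1473 reads in SF+MI and 1505 to 1662 in control+MI, fewer than Cebpd in every library.

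Cebpe, which controls secondary granule genes, had 306.8, 176.5 and 269.4 CPM in SF+MI libraries, against 193.8, 298.6 and 159.7 CPM in control+MI libraries. The ranges nearly coincided: SF+MI replicates 1 and 3 and control+MI replicate 2 were high, and the other 3 libraries low. Means were 250.9 ± 67.1 CPM in SF+MI and 217.4 ± 72.4 CPM in control+MI (SD, n = 3 each), with a log2 fold change of 0.21 (SE 0.26, 95% interval -0.39 to 0.80; edgeR unadjusted p = 0.453). The difference ranged from 0.027 without control+MI replicate 3 to 0.51 without control+MI replicate 2, where the unadjusted p was 0.057. No annotated gene overlaps Cebpe.

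Cebpg, the partner of Atf4, was the steadiest member, with 75.6, 77.3 and 81.5 CPM in SF+MI and 65.1, 76.9 and 79.5 CPM in control+MI. Control+MI replicate 1 was again the lowest, and the other 5 libraries were close together. Means were 78.1 ± 3.06 CPM in SF+MI and 73.8 ± 7.68 CPM in control+MI (SD, n = 3 each), and the log2 fold change was 0.08 (SE 0.11, 95% interval -0.18 to 0.34; edgeR unadjusted p = 0.492). Its direction was lost without control+MI replicate 1, at -0.0011, and turned to -0.021 when libraries were scaled by size alone. That scaling moved the median log2 fold change of all genes to -0.11, against -0.004 after TMM scaling. Gm45095, annotated on the opposite strand over part of Cebpg, had 5 to 26 reads in SF+MI and 10 to 62 in control+MI, while Cebpg had 2021 to 2500 reads in SF+MI and 2061 to 2614 in control+MI. Cebpg and Cebpa are both on chromosome 7.

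**Figure D2:**
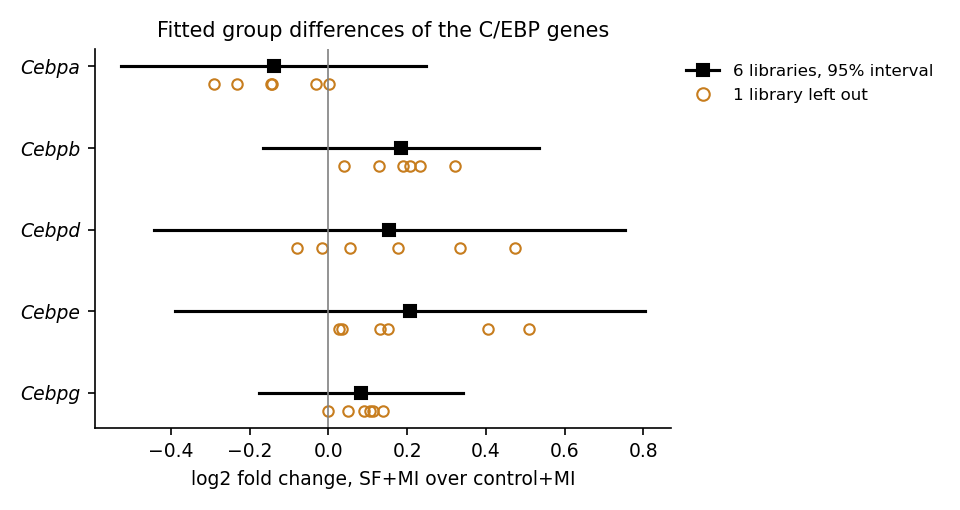
Log2 fold change of each C/EBP gene, SF+MI over control+MI, with its 95% interval from the edgeR fit to 6 libraries (squares and lines) and with each library left out in turn (open circles). All 5 intervals cross 0, and an open circle lies on the other side of 0 for Cebpa, Cebpd and Cebpg.

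The members differed in how much they varied within a group. The SD of log2 CPM within groups was 0.442 for Cebpd and 0.440 for Cebpe, each at percentile 94.9 of the 7068 tested genes with a mean of at least 20 CPM, whose median was 0.168. It was 0.254 for Cebpa (percentile 75.1), 0.222 for Cebpb (67.6) and 0.116 for Cebpg (25.8). The highest library held 1.93 times the lowest for Cebpd, 1.92 times for Cebpe, 1.59 times for Cebpa, 1.55 times for Cebpb and 1.25 times for Cebpg.

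Levels of different members were compared per kilobase of annotated exon. Cebpe was at 202.2 ± 54.1 CPM per kilobase in SF+MI and 175.2 ± 58.3 in control+MI (SD, n = 3 each). Cebpa followed at 53.3 ± 10.8 in SF+MI and 58.7 ± 8.16 in control+MI, and Cebpb at 47.5 ± 3.47 in SF+MI and 41.8 ± 8.25 in control+MI. Cebpd had 25.4 ± 7.19 in SF+MI and 22.8 ± 7.86 in control+MI, and Cebpg had 13.9 ± 0.544 in SF+MI and 13.1 ± 1.37 in control+MI. In this order Cebpa and Cebpb are neighbours whose libraries overlap within SF+MI, so their order is not larger than the spread there. Among 47 tested genes that the deposited table annotates as bZIP or C/EBP, with Cebpd added, Cebpe ranked 1, Cebpa 7, Cebpb 9, Cebpd 16 and Cebpg 21 by mean CPM per kilobase. Jun and Fos, subunits of AP-1, came next after Cebpe, at 110.7 and 106.4 CPM per kilobase in SF+MI and 94.6 and 91.7 in control+MI. That order holds for the means and not in each library. Per kilobase, Jun lay above Cebpe in SF+MI replicate 2, and Fos lay above Cebpe in control+MI replicate 3. Cebpe made up 63.9%, 50.3% and 60.8% of the family's summed CPM per kilobase in SF+MI libraries, against 58.1%, 61.2% and 47.2% in control+MI libraries. The share of Cebpa was 11%, 22.6% and 15% in SF+MI, against 19.0%, 14.8% and 24.6% in control+MI. It was low where that of Cebpe was high, which shares of a common sum bring about in part by construction.

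Of the other 42 tested bZIP genes, 31 had a higher fitted level in SF+MI, with a median log2 fold change of 0.14. Over all tested genes, 49.0% had a higher fitted level and the median was -0.004. How the bZIP median depends on single libraries was not tested. Crem, a cyclic AMP-responsive factor, was the 1 gene among them at an unadjusted p under 0.05, and its groups did not overlap. It had 4.86, 4.05 and 5.64 CPM in SF+MI against 2.65, 3.50 and 3.10 CPM in control+MI (log2 fold change 0.65, SE 0.27; edgeR unadjusted p = 0.037, adjusted p = 0.99988). Xbp1, a factor of the unfolded protein response, had groups without overlap in the other direction, at 211, 203 and 200.3 CPM in SF+MI against 212, 259.9 and 213 CPM in control+MI (-0.16, SE 0.12). Shares of 1 in 42 at that p, and of 2 in 42 without overlap, are to be read beside the 2.82% and 6.75% of all genes.

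The balance between members also varied by library. The ratio of Cebpe reads to Cebpa reads was 2.74, 1.05 and 1.91 in SF+MI libraries, against 1.44, 1.95 and 0.902 in control+MI libraries, with overlapping groups and a difference of 0.37 between the mean log2 ratios. SF+MI replicate 1 had the highest ratio and control+MI replicate 3 the lowest. The ratio of Cebpb to Cebpa reads was 0.688, 0.394 and 0.501 in SF+MI, against 0.369, 0.485 and 0.365 in control+MI. Cebpd and Cebpe kept a steadier proportion: their ratio lay between 0.341 and 0.402 in SF+MI and between 0.330 and 0.458 in control+MI. These ratios of read counts compare libraries, not the abundance of one member with that of another.

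**Figure D3:**
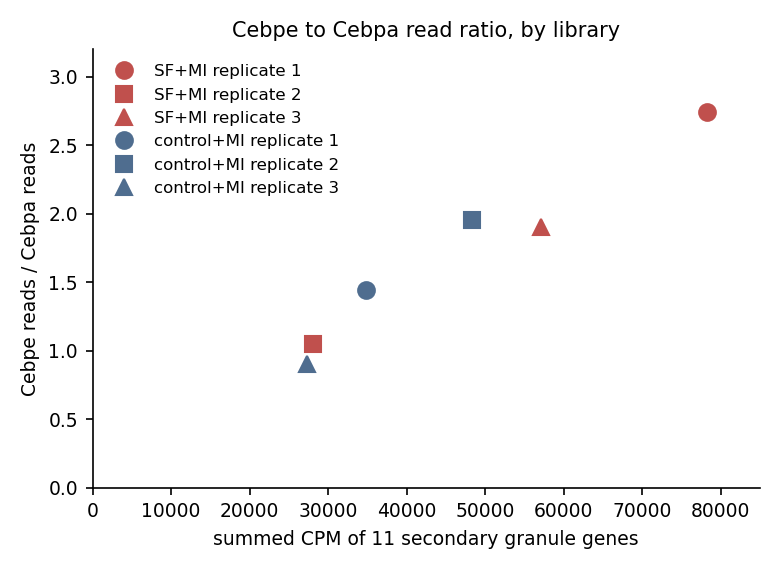
Ratio of Cebpe to Cebpa read counts (vertical axis) against the summed CPM of 11 secondary granule genes (horizontal axis), 1 point per library, SF+MI in red and control+MI in blue. SF+MI replicate 1 lies at the upper right with a ratio of 2.74, while SF+MI replicate 2 and control+MI replicate 3 lie lowest, at 1.05 and 0.902.

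Among the 10 pairs of members, Cebpd and Cebpe had the highest correlation of log2 CPM over the 6 libraries (Pearson r = 0.91, Spearman rho = 0.77). Without the 2 libraries farthest from the median of Cebpd, r was 0.75. Each pair was trimmed by its first-named gene in this way, so the 2 libraries left out can differ between pairs. Cebpb and Cebpd followed at r = 0.83 (rho = 0.94, and r = 0.96 without the 2 farthest for Cebpb). Cebpa and Cebpe ran in opposite directions at r = -0.69 (rho = -0.77), but r was -0.22 without the 2 libraries farthest for Cebpa. Leaving those out also narrows the range of Cebpa, so the step cannot show whether the relation rests on them. For Cebpb and Cebpg r was 0.79 but rho was 0.03, and r turned to -0.14 without the 2 farthest. These values describe 6 libraries that share their groups, gate and sequencing, and carry no test.

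**Figure D4:**
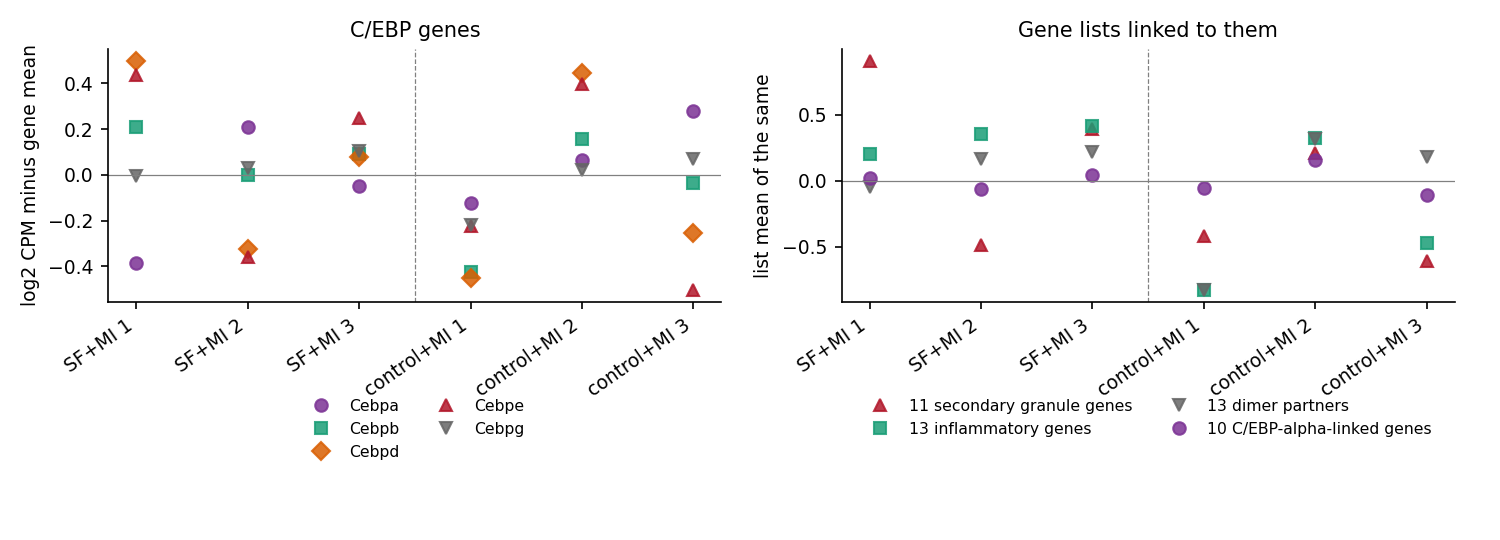
Log2 CPM of each C/EBP gene (left) and mean over 4 gene lists (right) in each library, relative to the mean of the 6 libraries, with SF+MI left of the dashed line and control+MI right of it. Cebpe and the secondary granule genes are above their means in SF+MI replicates 1 and 3 and in control+MI replicate 2, Cebpd is highest in SF+MI replicate 1 and control+MI replicate 2, and the dimer partners are lowest in control+MI replicate 1.

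Genes most like each member were taken by the highest r of log2 CPM over the 6 libraries among 7063 genes with a mean of at least 20 CPM. For Cebpb these were Btg2, Ier2 and Sik1 (r = 0.995, 0.990 and 0.989), all known as immediate-early genes. Btg2 had 143, 97.4 and 118 CPM in SF+MI against 41.2, 147 and 93.2 CPM in control+MI, lowest like Cebpb in control+MI replicate 1. For Cebpg they were Wasl, Ier3 and Atf4 (r = 0.978, 0.961 and 0.952), the last of which encodes its stress response partner. Atf4 had 213, 224 and 226 CPM in SF+MI against 194, 211 and 222 CPM in control+MI. Cebpa was nearest to Setdb1, a histone methyltransferase, Ubqln4 and Tex2 (r = 0.994, 0.991 and 0.986), Cebpd to Stk40, Hjurp and Cyth4 (0.996, 0.995 and 0.991) and Cebpe to Taf4, Dnajc14 and Npepps (0.996 each). Of the 7063 genes, 204 (2.89%) passed r = 0.95 with Cebpe, 190 (2.69%) with Cebpd, 28 (0.396%) with Cebpb, 21 (0.297%) with Cebpa and 3 (0.0425%) with Cebpg.

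Genes of the wider C/EBP network were described by lists of dimer partners, regulators and genes known from mouse or human work to depend on a member, and 0 genes of any list were called by edgeR, limma-voom or DESeq2. The bZIP dimer partners had 13 of 14 genes tested, of which 9 had a higher and 4 a lower fitted level in SF+MI, with a median log2 fold change of 0.15 and 0 at an unadjusted p under 0.05. The median over all 12097 genes was -0.004, and that of the partners was 0.073 without SF+MI replicate 2, 0.061 without SF+MI replicate 3, -0.067 without control+MI replicate 1 and 0.35 without control+MI replicate 2. Fos, an AP-1 subunit, had 147, 303 and 301 CPM in SF+MI, against 72.3, 255 and 320.0 CPM in control+MI. Jun, its partner, had 208, 485 and 365 CPM in SF+MI against 112, 413 and 380.3 CPM in control+MI. Both were low in replicate 1 of either group, and lowest in control+MI replicate 1. Fosl2, with 172, 86.7 and 105 CPM in SF+MI against 60.7, 136 and 77.4 CPM in control+MI, had the smallest p of the list (0.41, SE 0.33; edgeR unadjusted p = 0.24). Nfil3 (0.27), Atf3 (0.64) and Atf4 (0.08) came after it, at unadjusted p of 0.29, 0.34 and 0.48.

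Regulators that act upstream of the family, such as cytokine receptors and transcription factors, had 20 of 21 genes tested, with 12 higher and 8 lower fitted levels, a median of 0.02 (-0.09 when libraries were scaled by size alone) and 0 at an unadjusted p under 0.05. With 1 library left out that median ran from -0.058 without SF+MI replicate 1 to 0.12 without SF+MI replicate 2. Rara, the retinoic acid receptor that acts on Cebpe, had 43.1, 23.9 and 24.6 CPM in SF+MI against 14, 25.2 and 23.4 CPM in control+MI (0.55, SE 0.28; edgeR unadjusted p = 0.084). Hoxa9, a factor of earlier progenitors, had 3.66, 5.66 and 5.02 CPM in SF+MI against 8.97, 4.71 and 7.09 CPM in control+MI (-0.53, SE 0.30). Groups overlapped for both genes. Regulators of C/EBP proteins themselves had 25 genes tested, 15 higher and 10 lower, with a median of 0.04 (-0.07 when libraries were scaled by size alone) and 0 at that p. The lowest median with 1 library left out was -0.0069, without SF+MI replicate 1, and the highest 0.089, without SF+MI replicate 2. Trib1, which guides C/EBP-alpha to degradation, had 136, 84.1 and 112 CPM in SF+MI against 24.4, 134 and 60.7 CPM in control+MI (0.60, SE 0.49), so that control+MI replicate 1 held the least and control+MI replicate 2 nearly the most. Crebbp, a histone acetylase and coactivator, had the smallest p of the list (0.22, SE 0.13; edgeR unadjusted p = 0.13).

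Progenitor genes linked to C/EBP-alpha were split, with 5 of 10 higher and 5 lower, a median of 0.02 (-0.08 when libraries were scaled by size alone) and 0 at an unadjusted p under 0.05. Leaving out 1 library moved that median between -0.053, without control+MI replicate 3, and 0.11, without control+MI replicate 2. Prtn3, a protease of primary granules, had 1420.3, 1753 and 1548 CPM in SF+MI against 2108, 1921 and 1994 CPM in control+MI. All 3 SF+MI libraries lay below all 3 control+MI libraries (-0.35, SE 0.16; edgeR unadjusted p = 0.051, adjusted p = 0.99988). Elane, the neutrophil elastase gene, had 2067, 2832 and 2567 CPM in SF+MI against 2852, 2888 and 2925 CPM in control+MI, without overlap but by a narrow margin (-0.21, SE 0.18). These were the 2 of 10 genes of this list whose groups did not overlap, both lower in SF+MI, beside 3.84% of all genes in that direction. Lyz2, for lysozyme, had 8674, 3669.5 and 6606 CPM in SF+MI against 3860.1, 6793 and 3373 CPM in control+MI, a library order like that of Cebpe. Il6ra, a cytokine receptor chain, had a log2 fold change of 0.21 (SE 0.14). Cebpe is itself on this list.

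Secondary granule genes linked to C/EBP-epsilon had higher fitted levels in SF+MI in 11 of 11 cases, with a median log2 fold change of 0.54. Mmp8 and Mmp9 were at an unadjusted p under 0.05, beside 2.16% of all genes in that direction. Mmp8, for neutrophil collagenase, had 2223, 936 and 1431 CPM in SF+MI against 354, 1067 and 528 CPM in control+MI (1.24, SE 0.42; edgeR unadjusted p = 0.018, adjusted p = 0.99988). Mmp9, for a gelatinase of later granules, had 2668, 941 and 1420.1 CPM in SF+MI against 507, 1313 and 706 CPM in control+MI (0.99, SE 0.43; unadjusted p = 0.046). In both genes SF+MI replicate 2 lay below control+MI replicate 2. Camp, for the cathelicidin peptide, had 4911, 2036 and 4564 CPM in SF+MI against 2392, 3431 and 1852 CPM in control+MI (0.58, SE 0.35), and Itgb2l had the same difference of 0.58. The list's median was 0.18 without SF+MI replicate 1, 0.88 without SF+MI replicate 2, 0.81 without control+MI replicate 2 and 0.35 without control+MI replicate 3. Over the 6 libraries the mean of this list correlated with Cebpe at r = 0.93, with Cebpd at 0.88 and with Cebpa at -0.80. Without the 2 libraries farthest from the median of the member in question, r was 0.94, 0.86 and -0.25 in that order. Cebpe also ran with the maturing neutrophil markers (r = 0.89), a list that shares Ltf, Camp, Ngp, Mmp8, Mmp9 and Lcn2 with this one, and against the basophil and mast cell markers (-0.85) and the monocyte markers (-0.84). All 12 of those neutrophil markers had higher fitted levels in SF+MI, 5 at an unadjusted p under 0.05, where the shares over all genes were 49.0% with a higher fitted level and 2.16% higher at that p. The basophil and mast cell markers summed to 1045, 2289 and 1739 CPM in SF+MI against 1412, 1142 and 2587 CPM in control+MI. The 8 monocyte markers summed to 2536 to 2793 CPM in SF+MI and 2433 to 2852 CPM in control+MI. The 6 eosinophil markers summed to 3034 to 4173 CPM in SF+MI and 2535 to 4470 CPM in control+MI. With the eosinophil markers r was -0.67 for Cebpe, -0.83 for Cebpb, -0.83 for Cebpd, -0.68 for Cebpg and 0.013 for Cebpa. With the neutrophil markers r was 0.80 for Cebpb, 0.87 for Cebpd, 0.43 for Cebpg and -0.64 for Cebpa. Trimmed by the member as above, r with the neutrophil markers was 0.85 for Cebpb, 0.91 for Cebpd, -0.94 for Cebpg and 0.10 for Cebpa. With the eosinophil markers it was -0.93 for Cebpe, -0.83 for Cebpb, -0.91 for Cebpd, 0.22 for Cebpg and -0.16 for Cebpa. The signs for Cebpg and Cebpa thus changed with the 2 libraries left out. None of these markers was at 0 in every library. The part of the neutrophil, basophil, monocyte and eosinophil transcripts in the levels of Cebpe and the other members was not tested.

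Inflammatory genes linked to C/EBP-beta and C/EBP-delta had 13 of 17 genes tested, 9 higher and 4 lower, with a median of 0.34. Il1rn alone was at an unadjusted p under 0.05. Over all genes, 49.0% had a higher fitted level in SF+MI and 2.16% were higher at that p. Il1rn, for the interleukin 1 receptor antagonist, had 76.7, 40.2 and 55.3 CPM in SF+MI against 16.2, 42.0 and 20.7 CPM in control+MI (1.12, SE 0.35; edgeR unadjusted p = 0.012, adjusted p = 0.99988). SF+MI replicate 2 lay just under control+MI replicate 2. S100a8, for an alarmin, had 23707, 11753 and 30229.5 CPM in SF+MI against 14260.5, 15821 and 9613 CPM in control+MI (0.73, SE 0.37), and its partner S100a9 had a difference of 0.65 (SE 0.37). Saa3, for an acute phase protein, was low, with 2.43, 9.40 and 11.6 CPM in SF+MI against 1.42, 4.36 and 0.122 CPM in control+MI (1.99, SE 0.91). The median of this list was 0.86 without control+MI replicate 2 and 0.088 without control+MI replicate 1. It was 0.59 with limma-voom, 0.61 with the replicate block and 0.64 with no filter on low counts.

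Stress genes linked to C/EBP-gamma and Atf4 ran the other way, with 5 of 18 higher and 13 lower, a median of -0.13 and 0 at an unadjusted p under 0.05. That median was -0.068 without SF+MI replicate 1, -0.083 without control+MI replicate 1 and -0.080 without control+MI replicate 3. Aldh18a1, of proline synthesis, had 30.7, 39.6 and 29.8 CPM in SF+MI against 46.5, 35.9 and 43.8 CPM in control+MI (-0.33, SE 0.16; edgeR unadjusted p = 0.064). Slc7a11, the cystine transporter, had 15.2, 9.71 and 10.7 CPM in SF+MI against 5.78, 12.6 and 4.26 CPM in control+MI (0.65, SE 0.38). The groups overlapped for both. Antagonists of C/EBP-alpha had 4 of 10 higher and 6 lower, with a median of -0.06 and 0 at that p. That median was 0.036 without control+MI replicate 3 and -0.15 without control+MI replicate 2. Myc, which opposes the exit from the cell cycle, had 62.0, 102 and 85.3 CPM in SF+MI against 114, 86.9 and 101 CPM in control+MI (-0.27, SE 0.19), and E2f3, a cell cycle factor, had a difference of -0.14 (SE 0.12).

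**Figure D5:**
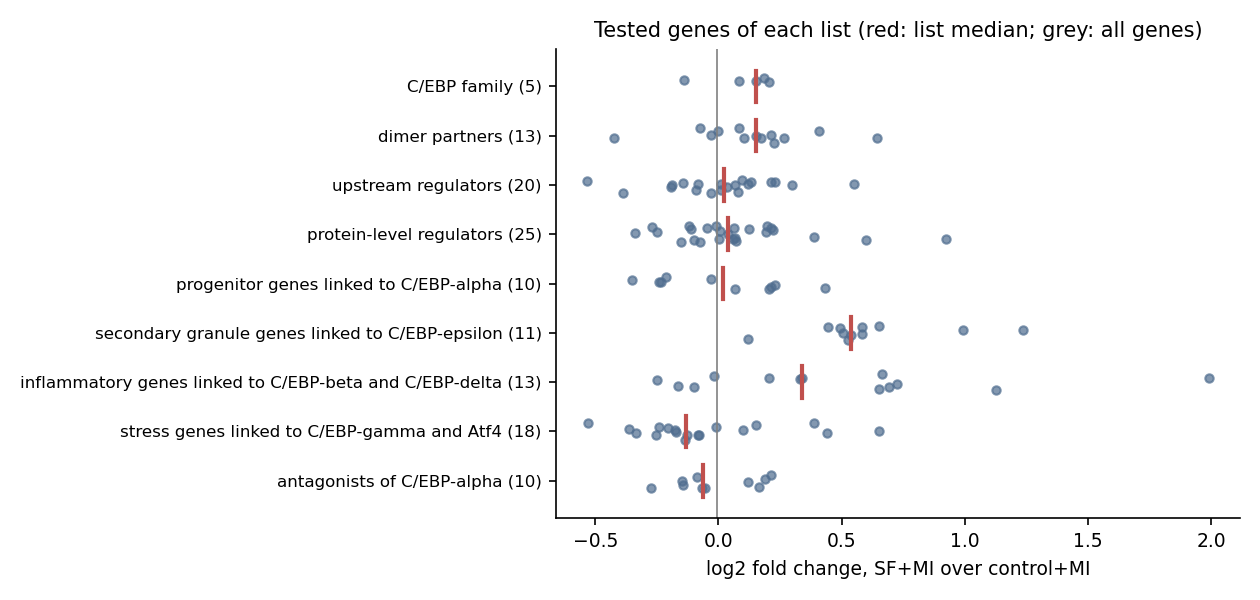
Log2 fold change of each tested gene, SF+MI over control+MI, by list (number of tested genes in brackets), with the list's median in red and the median of all genes, -0.004, as the grey line. The secondary granule genes all lie right of the line, with a median of 0.54, and the 5 members of the family spread from -0.14 to 0.21.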

How the data were processed

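Per the labels' protocols, RNA of the sorted cells was purified on columns (RNeasy Micro), and the VAHTS Universal V6 kit served for library preparation. The authors deposited raw read counts per gene for 6 libraries. The submitters' processing notes name the tools HTSeq, HISAT2 and fastp and the genome build GRCm39. Versions, strand setting and annotation release are not given in the sources used here. Groups and replicate numbers come from the sample titles.

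The main test was that of edgeR 4.0.16 in R 4.3.3 (filterByExpr with a minimum count of 10 and minimum total of 15, TMM, robust quasi-likelihood test, Benjamini-Hochberg adjustment, threshold 0.05), and 12097 genes were fitted together. The common biological coefficient of variation was 0.206. DESeq2 1.42.0 and limma-voom (limma 3.58.1) were alternatives. The fit was also tested on simulated data. Log2 CPM for correlations used a prior count of 2. Exon lengths and overlapping genes came from a GRCm38 annotation, matched by gene, while the counts rest on GRCm39; no coordinates were moved between builds. Promoter windows came from RefSeq.

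The members and gene lists were chosen with earlier results of these data known. Beside all members, the text names genes by rule: up to 4 of each list with the smallest p, and the 3 genes most like each member. Kit, Fos, Jun, Trib1, Crem, Xbp1 and the genes that complete a count or check the gate were named after their values were seen.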

Additional observations from a re-analysis of the deposited data

How the results depend on the processing

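Beside the fit reported, 14 others were run. None called a member, and the members kept their direction under each other scaling, filter and tool, except Cebpg at -0.021 with library size only. Genes called numbered 0 in every fit but DESeq2, which called 13. With 1 library left out in turn, the log2 fold change ranged from -0.29 to 0.0011 for Cebpa, 0.039 to 0.32 for Cebpb, -0.079 to 0.47 for Cebpd, 0.027 to 0.51 for Cebpe and -0.0011 to 0.14 for Cebpg. Cebpd was -0.017 without control+MI replicate 1. Genes at an unadjusted p under 0.05 numbered 341 with all libraries, 1330 without SF+MI replicate 2, 761 without control+MI replicate 2, 273 without SF+MI replicate 1, 197 without SF+MI replicate 3, 155 without control+MI replicate 1 and 204 without control+MI replicate 3. With the replicate block that number was 169, and the members had -0.15 (Cebpa), 0.20 (Cebpb), 0.17 (Cebpd), 0.23 (Cebpe) and 0.09 (Cebpg) and no call changed. Deviations of same-numbered libraries from their group means correlated at r = -0.25, -0.37 and -0.006 over all tested genes. The labels state no pairing, and with 3 libraries per group these values cannot show whether there was any. Library size only moved the medians of protein-level regulators to -0.07, stress genes to -0.22 and antagonists to -0.17. It also moved the median of all genes, from -0.004 to -0.11. The cause of these shifts was not tested. With longest-transcript lengths, a choice made after seeing the data, Cebpg was at 16.6 CPM per kilobase in SF+MI and 15.7 in control+MI, with the order of members kept. Each member had at least 1569 reads in every library.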
